A study of Homo sapiens with 4 samples.

Results

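The values of 10 genes were examined whose products act on the cytidine analogue azacitidine (AZA) or on the nucleotides it resembles. They are the nucleoside transporters SLC29A1 and SLC29A2, the kinases UCK1, UCK2, CMPK1 and DCK, the deaminases CDA and DCTD, the triphosphate hydrolase SAMHD1 and the nucleotidase NT5C2. They were matched by name to the gene names of the array design, and all 10 were on the array, among 43311 gene names. They had 13 of the 58185 probes, with 1 spot each. RNA was hybridized to 4 one-colour arrays, 1 for each condition. The conditions were MDS-L cells with vehicle (0.1% DMSO), MDS-L cells with 1 μM AZA, MDS-L/CDA cells with vehicle and MDS-L/CDA cells with 1 μM AZA, all for 72 h. Both lines grew in medium with serum and IL-3. MDS-L is a cell line from a patient with myelodysplastic syndrome, and MDS-L/CDA is its derivative made resistant to AZA by transducing CDA. Whether MDS-L/CDA is 1 clone is not given in the sources used here.

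With 1 array per condition no test was possible, and every ratio compares 2 single arrays. The treatment field of 2 samples (AZA-treated MDS-L and vehicle-treated MDS-L/CDA) contradicts their titles, descriptions and source names, and the latter were followed. The titles write the AZA dose in mM and the other fields in μM. Of 8 marker genes of myeloid progenitors, 7 were well above background on all 4 arrays and MPO on none. The epithelial and fibroblast markers were above background on no array. The B cell gene CD79A was above background on all 4 arrays and MS4A1 on none. The T cell genes CD3D and CD2 were both above background on the MDS-L AZA array, CD2 also on the MDS-L/CDA AZA array, and CD3E on none.

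AZA is a ribonucleoside prodrug. It enters cells through equilibrative nucleoside transporters, is phosphorylated first by uridine-cytidine kinase and then by nucleoside monophosphate and diphosphate kinases, and is built into RNA, or into DNA after ribonucleotide reductase has acted on the diphosphate. Azacytosine in DNA traps DNA methyltransferases. Cytidine deaminase converts AZA to azauridine, which removes the drug, and high cytidine deaminase is a known way for cells to resist it. Deoxycytidine kinase activates the deoxy form, decitabine, and not AZA itself.

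The probes are 60 bases long, so each gene is read through 1 or 2 short windows of its transcripts. The windows are shown for the genes on which the results turn, in lower case, as the array design lists them and with its hg19 positions. Whether they lie in coding sequence or UTR was not assigned here, because no hg19 annotation was used. For the first 4 only the first 30 bases are shown. The first 3 are the main AZA transporter and both uridine-cytidine kinases, and the fourth is CDA, the gene that distinguishes the lines. The last 3 are whole windows, of SLC29A2 and of the second probes of NT5C2 and CMPK1.
SLC29A1 (chr6:44201775-44201834, plus strand): accctgtacagttgccacgttactgccttt
UCK1 (chr9:134400085-134400144, minus strand): ggaggcttctgtgaggaatgtgaggcacat
UCK2 (chr1:165877122-165877181, plus strand): gctcatctgtacatactgtttcctatgaca
CDA (chr1:20945069-20945128, plus strand): agaatgcccactgcctgtaacagccacctg
SLC29A2 (chr11:66131724-66131783, minus strand): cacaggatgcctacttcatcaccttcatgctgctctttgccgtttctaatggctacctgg
NT5C2 probe 2 (chr10:104859684-104859743, minus strand): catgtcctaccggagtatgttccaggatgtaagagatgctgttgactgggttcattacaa
CMPK1 probe 2 (chr1:47838720-47838779, plus strand): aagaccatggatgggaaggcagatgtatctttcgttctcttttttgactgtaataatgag

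Signals are given as a percentage of the 75th percentile of all probes on the same array, to set arrays of different brightness on a common scale. They compare arrays for 1 probe, never 1 probe with another. That percentile was 52.9 on the MDS-L AZA array and 37.3 on the MDS-L/CDA AZA array. Over probes well above background on all 4 arrays it was 913 and 764, relatively closer, so ratios between the lines depend on this choice. A signal was taken as measured when the scanner software flagged it as well above background. The only measure of technical error between spots came from 300 probes with 10 spots on each array, and the SD for a ratio (spot SD) was taken from probes of like brightness. Below an unscaled signal of 64 it rested on only 5, 12, 5 and 7 probes in the order of conditions above. DCK and SAMHD1 fell there on all 4 arrays, and UCK1 on the MDS-L AZA and MDS-L/CDA vehicle arrays. Variation between hybridizations or cultures is not part of it. Of the 13 probes, 11 were measured on all 4 arrays. The CDA probe and the second SAMHD1 probe were measured on none, so 9 of the 10 genes have ratios.

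**Figure D1:**
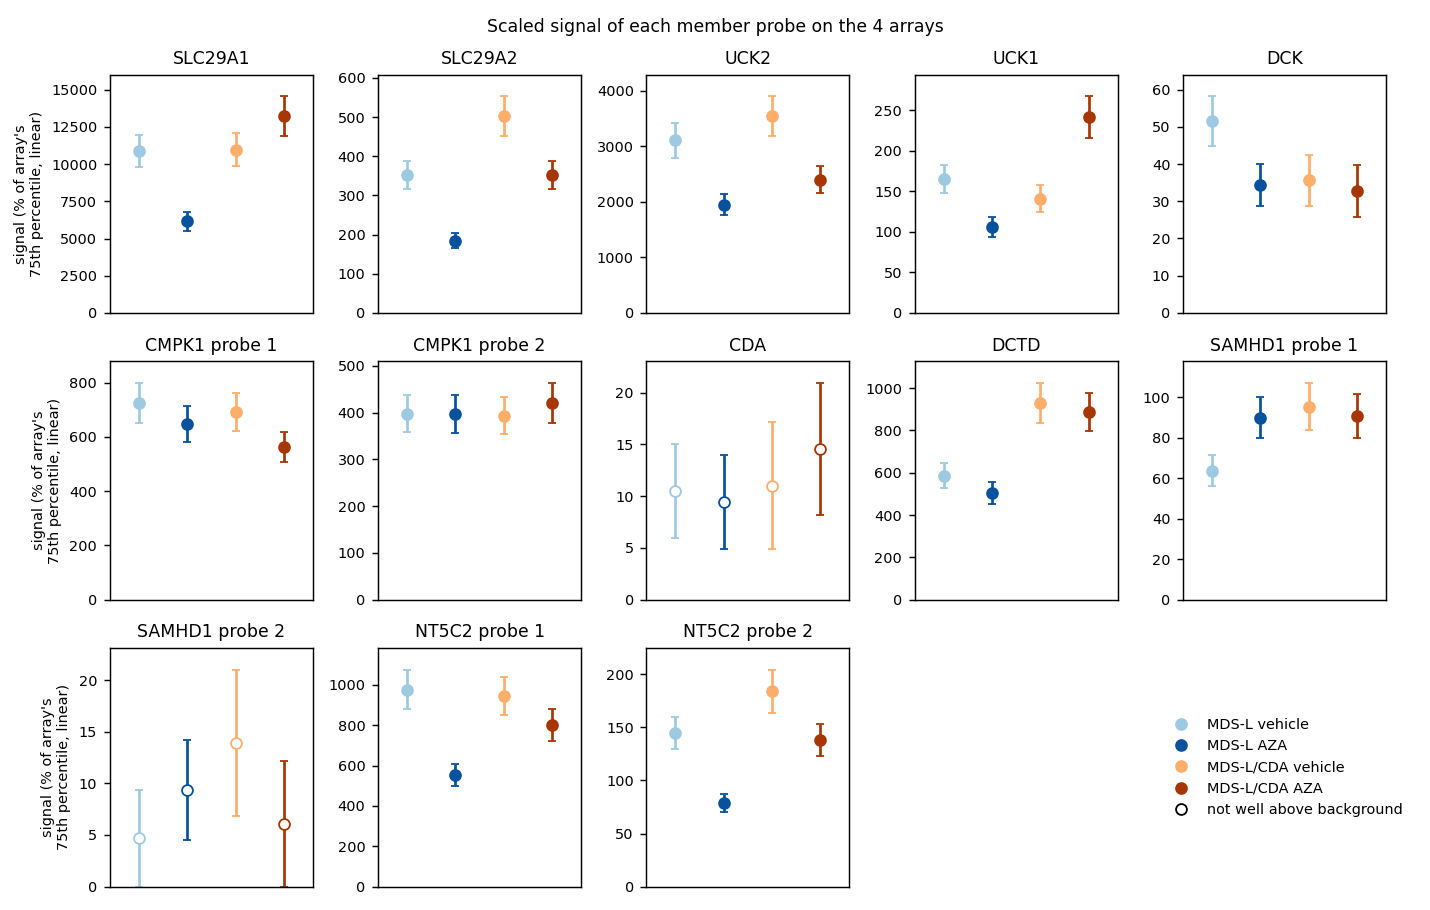
Signal of each of the 13 probes on the 4 arrays, as a percentage of the 75th percentile of the array, on a linear axis that starts at 0 and has its own scale in each panel. Points are single arrays, bars are the scanner software's error for the spot, and hollow points were not well above background. SLC29A1 was lowest on the MDS-L AZA array at 6151%, and UCK1 was highest on the MDS-L/CDA AZA array at 242%.

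Transporter signals on the MDS-L AZA array were the lowest of the 4 arrays for both SLC29A1 and SLC29A2. SLC29A1, the equilibrative carrier best known for AZA uptake, had a scaled signal of 10862% (vehicle) and 6151% (AZA) in the MDS-L line and 10977% (vehicle) and 13244% (AZA) in MDS-L/CDA. By scaled signal the vehicle arrays of the lines were close to each other, and the AZA arrays lay on opposite sides of them. Unscaled signals were 5708, 3256, 4474 and 4934 in the order of conditions above, so the MDS-L/CDA AZA array then lay between the vehicle arrays. The log2 ratio of AZA over vehicle was −0.82 (spot SD 0.22) in MDS-L cells and 0.27 (spot SD 0.31) in MDS-L/CDA cells. These signs were kept under each of 6 other normalizations, with ranges of −1.36 to −0.56 and 0.14 to 0.29. Under the same 6 the log2 ratio of MDS-L/CDA over MDS-L in vehicle was −0.51 to −0.065. SLC29A2, the second equilibrative carrier, had signals of 351% (vehicle) and 184% (AZA) in the MDS-L line and 503% (vehicle) and 353% (AZA) in MDS-L/CDA. Its log2 ratio of AZA over vehicle was −0.93 (spot SD 0.37) in MDS-L cells, the lowest of the 9 genes, and −0.51 (spot SD 0.52) in MDS-L/CDA cells. In each line its AZA array was the lower one, and both signs were kept under the 6 normalizations.

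Both uridine-cytidine kinases, which carry out the first phosphorylation of AZA, had lower signals with AZA in MDS-L cells, and they differed from each other in MDS-L/CDA cells. UCK2, the kinase of this pair with the higher activity towards AZA, had signals of 3106% (vehicle) and 1948% (AZA) in the MDS-L line and 3545% (vehicle) and 2396% (AZA) in MDS-L/CDA. Its log2 ratio of AZA over vehicle was −0.67 (spot SD 0.22) in MDS-L cells and −0.57 (spot SD 0.34) in MDS-L/CDA cells. The 2 AZA arrays were the 2 lowest. UCK1 had signals of 166% (vehicle) and 106% (AZA) in the MDS-L line and 141% (vehicle) and 242% (AZA) in MDS-L/CDA. Its log2 ratio was −0.65 (spot SD 0.36) in MDS-L cells and 0.78 (spot SD 0.46) in MDS-L/CDA cells. AZA thus gave the lowest and the highest of its 4 scaled signals. Unscaled, the MDS-L/CDA AZA and MDS-L vehicle arrays were close, at 90.1 and 87.1. With normexp background correction and with arrays scaled to their medians, the MDS-L vehicle array was slightly the higher of these. The UCK1 signs were kept under the 6 normalizations, but the ratio in MDS-L/CDA cells ranged from 0.30 to 0.79.

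CMPK1, which adds the second phosphate to pyrimidine monophosphates, varied little in scaled signal. Its first probe had signals of 725% (vehicle) and 647% (AZA) in the MDS-L line and 693% (vehicle) and 563% (AZA) in MDS-L/CDA. Its second probe had 398%, 397%, 393% and 421% in the same order. The log2 ratios of AZA over vehicle were −0.17 and −0.30 for the first probe in both lines (MDS-L, MDS-L/CDA), and −0.0019 and 0.097 for the second. Their spot SDs were 0.33 and 0.49 for the first probe and 0.37 and 0.52 for the second. The sign in MDS-L cells turned under 3 of the 6 normalizations for the first probe and under 5 for the second. The ratios there ranged from −0.71 to 0.019 and from −0.54 to 0.18, both lowest with arrays scaled to their medians. DCK, which phosphorylates deoxycytidine and decitabine, was close to background, with unscaled signals of 27.1, 18.2, 14.5 and 12.2 against a lowest measured signal of 9.98 to 11.1. Its scaled signals were 51.5% (vehicle) and 34.4% (AZA) in the MDS-L line and 35.6% (vehicle) and 32.8% (AZA) in MDS-L/CDA. The MDS-L vehicle array stood above the other 3. The log2 ratio of AZA over vehicle was −0.58 (spot SD 0.40) in MDS-L cells and −0.12 (spot SD 0.49) in MDS-L/CDA cells.

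CDA, the deaminase of cytidine and AZA that was transduced to make MDS-L/CDA cells, was not measured in either line. Its unscaled signals were 5.53 (vehicle) and 4.99 (AZA) in the MDS-L line and 4.48 (vehicle) and 5.42 (AZA) in MDS-L/CDA, with scanner errors of 2.37 to 2.50. All 4 were below the lowest measured signal of their array, so no ratio is given. The window starts at base 627 of the listed transcript, and which part of CDA was transduced is not given in the sources used here. The probe therefore does not check the label of the MDS-L/CDA arrays. DCTD, which deaminates deoxycytidylate and can also act on the monophosphate of decitabine, was higher in MDS-L/CDA than in MDS-L cells with either treatment. Its signals were 587% (vehicle) and 504% (AZA) in the MDS-L line and 931% (vehicle) and 887% (AZA) in MDS-L/CDA. Both MDS-L/CDA arrays were above both MDS-L arrays. The log2 ratio of MDS-L/CDA over MDS-L was 0.67 (spot SD 0.35) in vehicle and 0.81 (spot SD 0.37) under AZA, and the signs were kept under the 6 normalizations, down to 0.14 in vehicle (arrays scaled to their medians) and 0.31 under AZA (no scaling).

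SAMHD1, which hydrolyses deoxynucleoside triphosphates including that of decitabine, was the only measured gene with a higher signal with AZA in MDS-L cells by its brightest probe, although CMPK1 joined it under 3 of the 6 other normalizations. Its first probe had signals of 63.8% (vehicle) and 89.9% (AZA) in the MDS-L line and 95.4% (vehicle) and 90.6% (AZA) in MDS-L/CDA. By scaled signal the MDS-L vehicle array was the low one, and the other 3 lay close together. Unscaled signals were 33.5, 47.6, 38.9 and 33.8 in the order of conditions above. There the MDS-L vehicle and MDS-L/CDA AZA arrays were level and the MDS-L AZA array was the highest. The log2 ratio of AZA over vehicle was 0.49 (spot SD 0.40) in MDS-L cells, turning to −0.048 when arrays were scaled to their medians, and −0.074 (spot SD 0.49) in MDS-L/CDA cells, turning to 0.056 with normexp background correction. The second SAMHD1 probe had unscaled signals of 2.26 to 5.68 and was not measured on any array. NT5C2, a cytosolic nucleotidase that mainly removes the phosphate from purine monophosphates, was read by 2 probes that gave like ratios. The first had signals of 976% (vehicle) and 554% (AZA) in the MDS-L line and 944% (vehicle) and 800.4% (AZA) in MDS-L/CDA. The second had 144%, 78.9%, 184% and 138% in the same order. Both were lowest on the MDS-L AZA array. The log2 ratios of AZA over vehicle were −0.82 (spot SD 0.33) and −0.87 (spot SD 0.36) in MDS-L cells and −0.24 (spot SD 0.39) and −0.41 (spot SD 0.54) in MDS-L/CDA cells.

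**Figure D2:**
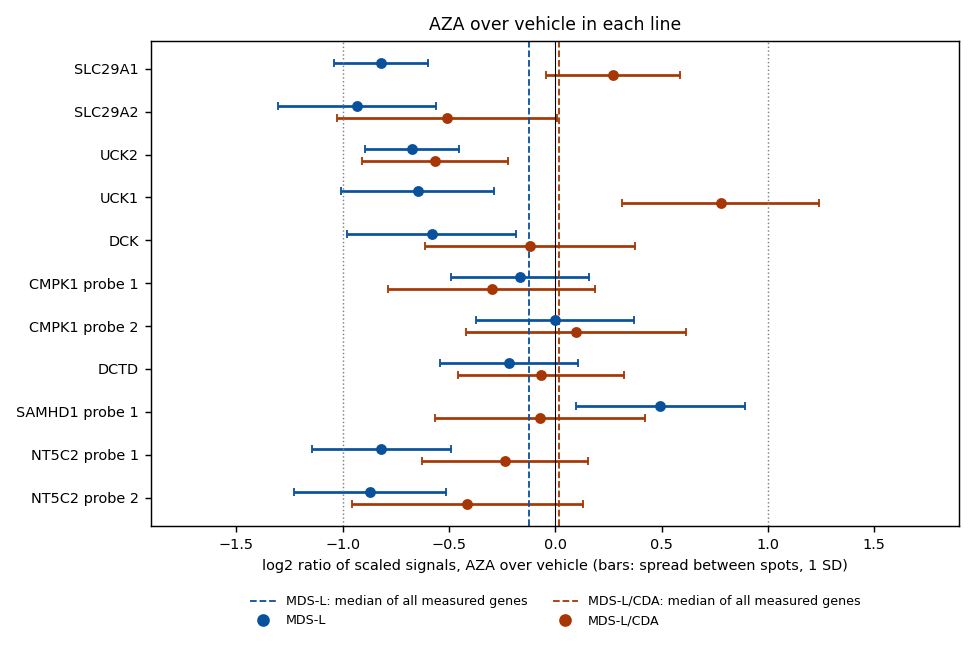
Log2 ratio of AZA over vehicle for the 11 measured probes in both lines (MDS-L, MDS-L/CDA). Points are ratios of single arrays, bars are 1 spot SD, dashed lines are the medians of all measured genes and dotted lines mark a ratio of 2 in either direction. SLC29A1 and UCK1 lie left of 0 in MDS-L cells (−0.82 and −0.65) and right of it in MDS-L/CDA cells (0.27 and 0.78).

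The study called a gene increased at a change ratio and a Z score of 2 or more. The rule was mirrored here for decreases, the Z score being the log2 ratio divided by the SD of log2 ratios among probes of like brightness. By this rule none of the 9 measured genes was called with AZA in MDS-L cells, where 4.63% of all 17202 measured genes were called higher and 3.23% lower. None of the 9 was called in MDS-L/CDA cells, where 2.49% of 15410 genes were called higher and 3.79% lower. At a ratio of 1.5 with no Z score, SLC29A1, SLC29A2, UCK1, UCK2 and NT5C2 were lower with AZA in MDS-L cells, 5 of 9 against 22.8% of all genes, and 0 were higher against 18.8%. In MDS-L/CDA cells UCK1 was higher by that threshold, 1 of 9 against 13.2% of all genes, and 0 were lower against 14.3%. That threshold was added after the data had been seen.

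Taking the brightest probe of each gene, 8 of the 9 genes had a lower signal with AZA in MDS-L cells, with a median log2 ratio of −0.65. Over all 17172 genes the median was −0.13 and 58.9% were below 0. In MDS-L/CDA cells 7 of the 9 genes were lower with AZA, with a median of −0.12, against a median of 0.015 and 48.3% below 0 over 15393 genes. Relative to the median of all genes, the log2 ratio in MDS-L cells was −0.69 for SLC29A1, −0.81 for SLC29A2, −0.55 for UCK2 and −0.52 for UCK1. With other normalizations 7 to 9 of the 9 genes were lower in MDS-L cells and 6 or 7 in MDS-L/CDA cells. Scaling each array to its median moved the median of all measured probes in MDS-L cells from −0.12 to −0.67, and that of the 9 genes to −1.19. It also brought 3 of the 9 genes past the ratio and Z score rule as lower.

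The AZA ratios of the lines were then set against each other. The log2 ratio in MDS-L/CDA cells minus that in MDS-L cells was 1.42 for UCK1, or 2.42 spot SDs, and 97.8% of the 17809 probes measured on all 4 arrays had a lower difference. The spot SD of UCK1 rests on only 12 replicated probes on the MDS-L AZA array and 5 on the MDS-L/CDA vehicle array. For SLC29A1 the difference was 1.09, or 2.84 spot SDs, above 94.9% of the probes. Under the 6 other normalizations the difference was 0.79 to 1.91 for UCK1 and 0.85 to 1.58 for SLC29A1. The differences for the other 9 probes were between −0.57 (the first SAMHD1 probe) and 0.58 (the first NT5C2 probe), and were at most 1.14 spot SDs. No test of these differences between lines was possible.

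In vehicle none of the 9 genes was called between MDS-L/CDA and MDS-L cells by the ratio and Z score rule, while 1.58% of 16034 genes were called higher in MDS-L/CDA cells and 3.59% lower. At a ratio of 1.5 alone DCTD was higher, 1 of 9 against 10.5% of all genes, and 0 were lower against 13.6%. The median log2 ratio of the 9 genes was 0.015, against 0.070 over all genes. DCK had a log2 ratio of −0.53 (spot SD 0.37), which was −0.067 with normexp and −1.06 with arrays scaled to their medians, and SLC29A1 was at 0.015, a value whose sign turned under all 6 other normalizations. SAMHD1 was at 0.58 (spot SD 0.37), but at 0.057 to 0.56 under the 6 other normalizations, lowest with arrays scaled to their medians.

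Under AZA, SLC29A1 was the 1 gene of 9 called higher in MDS-L/CDA than in MDS-L cells, at 2.15-fold (log2 ratio 1.11, spot SD 0.30) and a Z score of 2.29. Over all 16768 genes, 2.60% were called higher and 4.32% lower, with 0 of the 9 genes called lower. The call was lost without scaling, with quantile normalization, with normexp, in the authors' value table, with the percentile taken over measured probes alone and with 1 SD for all probes. In the 5 of these that change the normalization, the log2 ratio was 0.60 to 0.86, below a ratio of 2. With arrays scaled to their medians it was 1.07, and the call was kept. UCK1 was 2.28-fold higher (log2 ratio 1.19, spot SD 0.49), with a Z score of 1.36, and was not called, since a ratio of 3.37 would have been needed at its brightness. Its log2 ratio was 0.45 with normexp and 0.69 without scaling. At a ratio of 1.5 alone DCTD, NT5C2, SLC29A1, SLC29A2 and UCK1 were higher, 5 of 9 against 23.8% of all genes, and 0 were lower against 19.2%. The median log2 ratio of the 9 genes was 0.53, against 0.17 over all genes. This comparison shares the MDS-L AZA array with that of AZA over vehicle in MDS-L cells and is no separate observation of it.

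**Figure D3:**
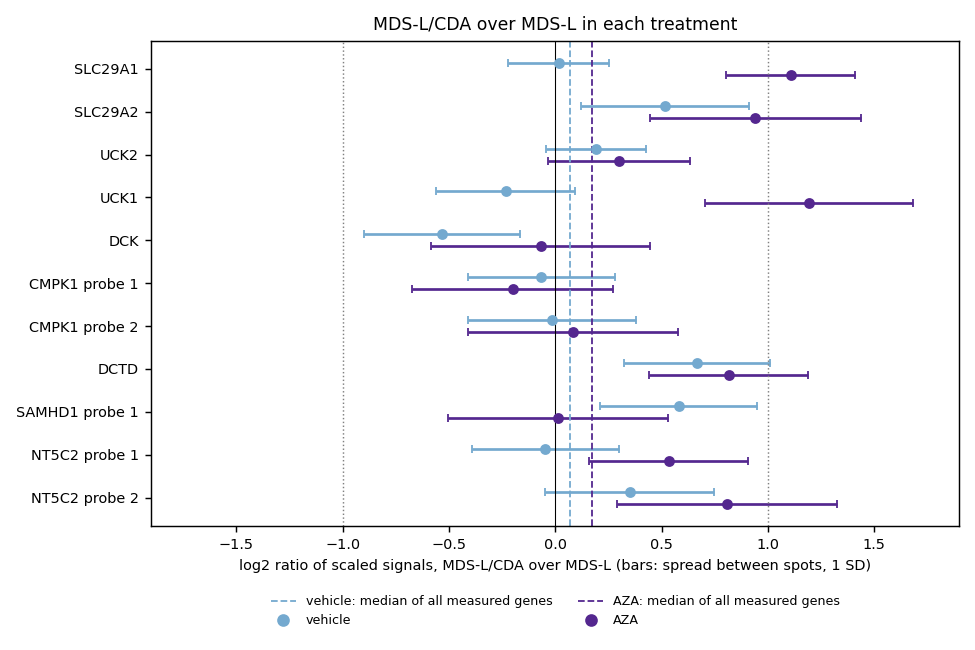
Log2 ratio of MDS-L/CDA over MDS-L for the 11 measured probes in vehicle and under AZA. Points are ratios of single arrays, bars are 1 spot SD, dashed lines are the medians of all measured genes and dotted lines mark a ratio of 2 in either direction. DCTD lies right of 0 in both treatments (0.67 and 0.81), whereas SLC29A1 and UCK1 do so only under AZA (1.11 and 1.19).

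The remaining steps of the pathway were described from lists of other nucleotide genes. For the counts called with AZA in these lists, the shares of all measured genes were 4.63% higher and 3.23% lower in MDS-L cells. In MDS-L/CDA cells they were 2.49% and 3.79%. Of the other nucleoside carriers, 2 of 5 were measured, and neither was called. SLC29A3, an equilibrative carrier of intracellular membranes, had log2 ratios of AZA over vehicle of 0.66 in the MDS-L pair and 0.52 in the MDS-L/CDA pair. SLC29A4, a carrier of monoamines and adenosine, had 0.54 and 0.93. All 4 values were above 0 with the main scaling, unlike those of SLC29A2. With arrays scaled to their medians, every ratio of the MDS-L pair was lower by about as much as the SLC29A4 ratio. SLC29A4 was also dim, with unscaled signals of 20.4, 29.8, 15.7 and 27.5 in the order of conditions above, and its second probe was not measured on any array. The concentrative carriers SLC28A1, SLC28A2 and SLC28A3 were not measured on any array. Among other nucleoside and nucleotide kinases, which include the diphosphate kinases of the third phosphorylation, 9 of 10 were measured. Of these, 1 was called lower with AZA in MDS-L cells, ADK, the adenosine kinase. Its signal was 728 (vehicle) and 271 (AZA) in the MDS-L line and 522 (vehicle) and 288 (AZA) in MDS-L/CDA, unscaled, with log2 ratios of −1.44 and −0.73. None of the 9 was called in MDS-L/CDA cells. None of the 6 genes of ribonucleotide reductase and deoxynucleotide metabolism was called in either line, and their median log2 ratio was −0.34 in the MDS-L pair and 0.064 in the MDS-L/CDA pair.

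Genes of pyrimidine and CTP synthesis, whose products compete with AZA nucleotides, held 5 measured members, and 2 were called lower with AZA in MDS-L cells. CTPS1, which makes CTP, had unscaled signals of 7613, 2779, 3407 and 3289 in the order of conditions above for its first probe, a log2 ratio of −1.46 in the MDS-L pair and 0.078 in the MDS-L/CDA pair. Its second probe gave ratios of 0.499 and 0.872. DHODH, the mitochondrial enzyme that makes orotate, had signals of 1343, 435, 1014 and 799 and log2 ratios of −1.64 and −0.21. Under AZA it was 2.61-fold higher in MDS-L/CDA than in MDS-L cells and was called. UMPS, which makes UMP from orotate, was called lower in MDS-L/CDA cells and not in MDS-L cells, with log2 ratios of −0.27 in MDS-L and −1.02 in MDS-L/CDA cells and signals of 3667, 3063, 2768 and 1252.

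Of 12 genes with the cytidine deaminase fold other than CDA and DCTD, 6 were measured in MDS-L cells and 2 were called higher with AZA. APOBEC3G, a deaminase of single-stranded DNA, had unscaled signals of 138, 431, 69.5 and 123, with ratios of 3.10 in MDS-L and 1.94 in MDS-L/CDA cells, and was called lower in MDS-L/CDA than in MDS-L cells under AZA. APOBEC3B, of the same family, had signals of 30.7, 131, 10.8 and 28.7, and a ratio of 4.25 in MDS-L cells. Its vehicle signal in MDS-L/CDA was not above background, so that its ratio in those cells was at least 2.83, and it was not called. Among the 5′-nucleotidases other than NT5C2, 3 of 7 on the array were measured, and 3 of 4 nucleoside phosphorylases, with none called in any of the 4 comparisons.

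The targets of azacytosine were read by 4 methyltransferase genes. DNMT1, the maintenance methyltransferase, had unscaled signals of 445, 358, 365 and 372, with log2 ratios of −0.32 in MDS-L and 0.16 in MDS-L/CDA cells, and was not called. DNMT3B, a de novo methyltransferase, was called lower with AZA in MDS-L cells. Its signals were 5776, 2695, 4592 and 3861, its log2 ratios −1.11 and −0.12, and under AZA it was 2.04-fold higher in MDS-L/CDA than in MDS-L cells and was called. Of these calls, those of CTPS1 and DHODH with AZA in MDS-L cells and of APOBEC3G between the lines were kept under the 6 other normalizations. The call of DNMT3B between the lines was lost under all 6 (log2 ratios of 0.52 to 0.99), and its call with AZA in MDS-L cells under 3 of them. The UMPS call was lost under 3 (log2 ratios just above −1), that of ADK under 2, that of DHODH between the lines under 2, and those of APOBEC3B and APOBEC3G with AZA in MDS-L cells under 1. The signs were kept throughout, also for DNMT1 in both lines.

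**Figure D4:**
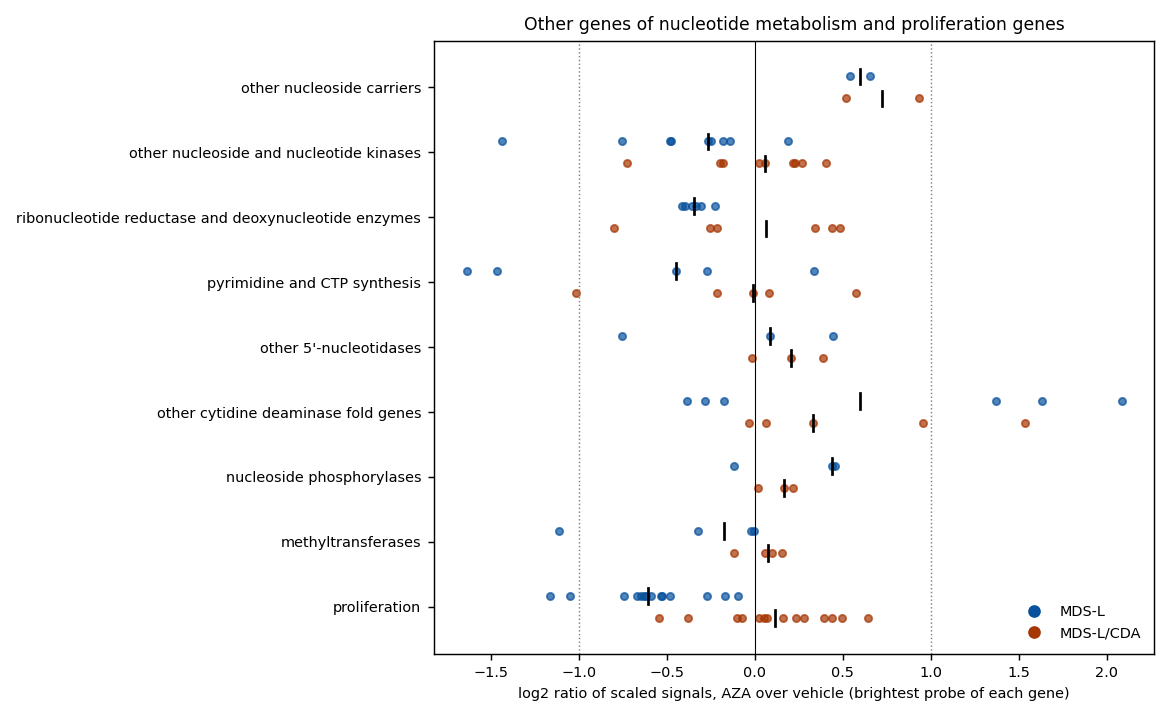
Log2 ratio of AZA over vehicle for the measured genes of 8 other lists of nucleotide metabolism and methyltransferases and of the proliferation list, in both lines (MDS-L, MDS-L/CDA), by the brightest probe of each gene. Each point is 1 gene, black bars are list medians and dotted lines mark a ratio of 2. The proliferation genes lie left of 0 in MDS-L cells, with a median of −0.61, and around it in MDS-L/CDA cells, with a median of 0.12.

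Genes of DNA replication and mitosis were also lower on the MDS-L AZA array. All 14 listed proliferation genes had lower signals with AZA in MDS-L cells by their brightest probe, against 58.9% of all genes. Their median log2 ratio was −0.61, and MCM3, MCM6 and PCNA were called lower, 3 of 14 against 3.23% of all genes. The PCNA call came from its second probe, at −2.27, whereas its brightest probe was at −0.67 and was not called. The MCM3 and MCM6 calls were lost under 3 of the 6 other normalizations. Under the 6 other normalizations 12 to 14 of the 14 genes were lower, with medians of −1.15 to −0.34. In MDS-L/CDA cells 4 of 14 were lower, against 48.3% of all genes, with a median of 0.12 that ranged from −0.013 to 0.21, and none was called. Under AZA the median of MDS-L/CDA over MDS-L was 0.76, and 0.25 to 0.72 under the 6 other normalizations. Over all genes it was 0.17 with the main scaling. CCNA2, MCM5, MCM6 and MCM7 were called higher, as were 2.60% of all 16768 genes. The calls of MCM5, CCNA2 and MCM6 were lost under 6, 5 and 1 of the 6 other normalizations. In vehicle MCM7 was already called higher in MDS-L/CDA cells, at 2.59-fold, and PCNA lower, at a ratio of 0.487 for its second probe. Of all 16034 genes, 1.58% were called higher in that comparison and 3.59% lower. This MCM7 call was lost with arrays scaled to their medians, and the PCNA call was kept under the 6 other normalizations. MCM3 and MCM6 had log2 ratios of −1.16 and −1.05 in MDS-L cells. The T cell genes CD3D and CD2 had their highest signals, 237 and 68.2 unscaled, on the MDS-L AZA array. By scaled signal 6 of the 9 measured genes (SLC29A1, SLC29A2, UCK1, UCK2, DCTD and NT5C2) were lowest on that array. The share of all genes lowest there was not computed. Unscaled, UCK2 was lowest on the MDS-L/CDA AZA array, at 893 against 1031 on the MDS-L AZA array. The unscaled UCK1 signals on the MDS-L AZA and MDS-L/CDA vehicle arrays were close, at 56.0 and 57.5. The part of the proliferation genes or of the T cell genes in the values of the transporters and kinases was not tested.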

How the data were processed

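RNA of both lines, with and without AZA, was hybridized to 4 one-colour Agilent arrays (Cy3) on 1 slide. The authors deposited the scanner output of Feature Extraction 10.7.1.1, which holds the intensity of each spot on a linear scale, background-subtracted but not normalized between arrays, and a value table of intensity for 51680 probes, whose sorted columns lie within 0.039 of each other in log2 units.

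Probes with outlier flags (16) were left out. The log2 intensity was averaged over spots and the 75th percentile of each array subtracted. The 75th percentile was between 37.3 and 52.9 in signal, and 32.6% to 36.5% of probes were well above background. A gene was called when at least 1 probe had a ratio of 2 or more and a Z score of 2 or more in 10 brightness bins and was well above background on the higher array. Medians and shares of genes below 0 used the brightest probe of each gene. Lower bounds replace a signal below background by the lowest signal well above it. The members and the other gene lists were chosen with earlier results of these data known. All members are named, and of the other genes those called and DNMT1. The alternatives comprised 11 planned ones and 2 chosen after seeing the data. Software was limma 3.58.1 in R 4.3.3 for normexp, and otherwise pandas 2.3.3, numpy 2.4.6 and matplotlib 3.10.9 in Python 3.11.15. The number of arrays limits the precision. Protein sequences and hg19 annotation were not used here. The result of 1 marker gene is not reported here.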

Additional observations from a re-analysis of the deposited data

Results flagged for a closer look

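The AZA over vehicle ratio of 4 probes lay on opposite sides of 1 in the lines, with 1 array per condition, and the differences were not tested. The log2 ratio of AZA over vehicle in MDS-L/CDA cells minus that in MDS-L cells was 1.42 for UCK1. It was 1.09 for SLC29A1. It was 0.099 for the second CMPK1 probe, where the spot SD of the difference was 0.64, and −0.57 for the first SAMHD1 probe, where it was 0.63.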

How the results depend on the processing

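Each group had 1 array, so leaving out a replicate was not possible. No paired analysis was possible because the result comes from no test and the groups hold 1 array each. Without scaling, the median log2 ratio of the members in the comparison of MDS-L/CDA over MDS-L was −0.35 in vehicle and 0.025 under AZA. With arrays scaled to their medians it was −0.51 in vehicle, the median for AZA over vehicle in MDS-L cells was −1.19, and 3 members were called lower there. Under AZA the median between the lines was 0.16 with normexp and 0.28 with the percentile over measured probes, which was added after the data had been seen. The count of members called higher in MDS-L/CDA than in MDS-L cells under AZA was 0 without scaling, with quantile normalization, with normexp, in the authors' value table, with the percentile over measured probes and with 1 SD over all probes. It was 2 by ratio alone. At a ratio of 1.5 alone, also added, it was 5, with 1 member higher between the lines in vehicle, 5 lower with AZA in MDS-L cells and 1 higher with AZA in MDS-L/CDA cells. The cause of these changes was not tested. Of 44 log2 ratios of single probes, 36 to 39 kept their sign under each of the 6 other normalizations. Signal near background limits DCK and SAMHD1, and CDA could not be read.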
